A study of Sus scrofa with 4 samples.

Results

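The miRNAs of the imprinted DLK1-DIO3 locus were measured by small RNA sequencing in hippocampal tissue of newborn piglets of the Rongchang breed from China (genotype given as wide type). They were chosen by name: a miRNA belonged to the set if its number, without the species prefix, was one of 34 numbers known from this locus in mammals, with any letter and either arm. The rule found 19 of 321 annotated pig miRNAs, covering 14 of the 34 numbers, and 212 of 2791 sequences in a second deposited table of conserved miRNAs, covering 29 numbers. The miRNAs miR-337, miR-433, miR-654, miR-889 and miR-1185 matched no row of either table and were not analysed here. All piglets came from 1 litter of 4 females and 4 males. Control piglets (4) were not injected, and 4 piglets labelled as the oxidative stress group were injected intramuscularly with iron dextran, a complex of iron with a sugar polymer, at 200 mg on post-partum days 3 and 4. Ventral and dorsal hippocampus were taken separately and mixed within each treatment, so each of the 4 groups (ventral control, dorsal control, ventral iron and dorsal iron) is 1 pooled library. The sources used here give neither the age at tissue collection nor the number of piglets in each pool, and no spread between piglets was measured.

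The DLK1-DIO3 region is imprinted in mammals: the protein-coding genes DLK1, RTL1 and DIO3 are expressed from the paternal copy, and the noncoding RNAs, among them the miRNAs, from the maternal copy. The miRNAs lie in 2 blocks. A proximal block includes miR-127, miR-136, miR-431, miR-432 and miR-433, which are made from the strand opposite to RTL1, and a larger distal block is known as the miR-379/410 cluster, which neurons transcribe in response to activity. Each hairpin gives a 5p and a 3p strand, one of which is usually kept by the silencing complex, and bases 2 to 8 of the kept strand (the seed) choose its targets.

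All 19 annotated members were matched to a pig sequence in the conserved table. The sequences below are those on which the following results turn, written 5′ to 3′ as deposited, with the seed in capitals. The first is the most abundant member. The next 2 are the opposite arms of miR-136, whose annotated arm differed most between libraries among the measured annotated members. The following 3 are the measured annotated members with the widest differences between libraries after miR-136.
miR-127: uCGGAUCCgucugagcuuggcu
miR-136-5p: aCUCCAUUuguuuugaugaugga
miR-136-3p: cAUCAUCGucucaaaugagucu
miR-369-3p: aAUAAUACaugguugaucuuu
miR-758: uUUGUGACcugguccacuaac
miR-376c-5p: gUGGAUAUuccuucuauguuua
The members' seeds were mostly distinct. Of the 54 arms measured in the conserved table, the most abundant sequences carried 48 different seeds, and 5 seeds were shared by 11 arms. The annotated pig miR-376a-3p has the same seed as the conserved miR-376d and miR-376b-3p, from which it differs near its 3′ end.
miR-376a-3p: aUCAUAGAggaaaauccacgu
miR-376d: aUCAUAGAggaaaauccacau
miR-376b-3p: aUCAUAGAggaaaauccauguu
In 5 of the 19 pig sequences the 5′ end lay 1 base from that of the most abundant sequence of the same arm, which moves the seed. The pig sequence of miR-411, a 3p arm of the distal block, starts 1 base later than the most abundant sequence of that arm, whose seed is that of miR-379-3p.
pig miR-411: aUGUAACAcgguccacuaac
most abundant miR-411-3p: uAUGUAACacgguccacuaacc
miR-379-3p: uAUGUAACaugguccacuaac
The row of the pig miR-411 sequence held 22.3 reads in ventral control, 18.3 in dorsal control, 13.7 in ventral iron and 33.7 in dorsal iron. The row of the most abundant miR-411-3p sequence held 2667, 2572, 2504 and 2540.2 reads in the same order. The annotated miR-411 was listed with 6202, 5896, 5785 and 6233 reads, far above the row of its own exact sequence, so the annotated value counts more than reads of that exact sequence.

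The annotated table held 13839556 reads in ventral control, 12100980 in dorsal control, 12299691 in ventral iron and 11396809 in dorsal iron, after rows that list the same miRNA more than once were merged. Levels are given as CPM, read counts put on a common library size by TMM scaling, and a miRNA counts as measured when it reached 10 CPM in at least 1 library, as 251 annotated miRNAs did. Of the 19 annotated members 15 were measured. The other 4 (miR-376b, miR-493-5p, miR-493-3p and miR-487b) stayed between 0.0811 and 9.30 CPM, and miR-376b had 1 to 5 reads a library. Intervals below are exact 95% intervals from the read counts; they cover counting error only, and no test between 2 libraries was possible.

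Members held 1.84% of annotated miRNA reads in ventral control (1.83 to 1.84%), 2.24% in dorsal control (2.23 to 2.25%), 2.10% in ventral iron (2.09 to 2.11%) and 2.08% in dorsal iron (2.07 to 2.09%). The share was lowest in ventral control and highest in dorsal control, and the intervals of the iron libraries lie between those of the controls. MiR-127 alone held 60.8% of the members' reads in ventral control, 65.4% in dorsal control, 66.1% in ventral iron and 62.1% in dorsal iron. Without miR-127 the members' share was 0.721% in ventral control, 0.774% in dorsal control, 0.712% in ventral iron and 0.787% in dorsal iron, so this smaller share was higher in both dorsal libraries.

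In the proximal block, miR-127, which is complementary to RTL1, had 10653.5 CPM in ventral control, 14363.5 in dorsal control, 13865.5 in ventral iron and 13825.8 in dorsal iron. Ventral control was low and the other 3 libraries lay close together. MiR-370 had 1129, 1044, 1116 and 1273 CPM in the same order of libraries, with dorsal iron the highest. The 5p arm of miR-432 had 642.9, 656.7, 643.2 and 657.6 CPM, and its levels differed by 1.02-fold from the lowest to the highest library. Its 3p arm, the minor one, had 11.7, 11.7, 11.4 and 15.5 CPM. MiR-136, annotated in pig as the 5p arm and also antisense to RTL1, had 141.5 CPM in ventral control, 103 in dorsal control, 98.9 in ventral iron and 68.7 in dorsal iron. It is the one measured annotated member that was lower in iron than in control in both regions and lower in dorsal than in ventral in both treatments with every counting interval excluding a ratio of 1, and its highest library was 2.06-fold above its lowest.

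In the distal block, miR-758 had 1895 CPM in ventral control, 1770.4 in dorsal control, 1883 in ventral iron and 2745 in dorsal iron, where it stood above the other 3. MiR-323 had 1782, 2333, 1911 and 2052 CPM, highest in dorsal control. MiR-411 had 428, 478, 469 and 585 CPM, highest in dorsal iron. MiR-369, annotated as the 3p arm, known for binding AU-rich elements of the TNF message, had 344, 579.7, 472 and 513 CPM. Ventral control was again low and dorsal control high. MiR-382 had 303, 368.9, 297 and 321 CPM and miR-299 had 67.3, 83.1, 74.0 and 73.8 CPM, both highest in dorsal control. MiR-381 had 39.0 CPM in ventral control, 56.7 in dorsal control, 47.1 in ventral iron and 37.9 in dorsal iron. The annotated sequences of the miR-376 family, known in mammalian brain for A-to-I editing of its seed, were low here: miR-376a-5p had 45.6, 42.4, 32.9 and 34.6 CPM, miR-376a-3p had 17.0, 19.8, 17.4 and 18.2 CPM, and miR-376c had 13.8, 16.5, 13.4 and 10.24 CPM. MiR-376a-5p was lower in both iron libraries than in both control libraries, while miR-376c was lowest in dorsal iron alone. The annotated miR-376c is the minor 5p arm of its hairpin. In the second table miR-376c-3p had 159, 189, 170.0 and 159 CPM in the same order, highest in dorsal control.

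**Figure D1:**
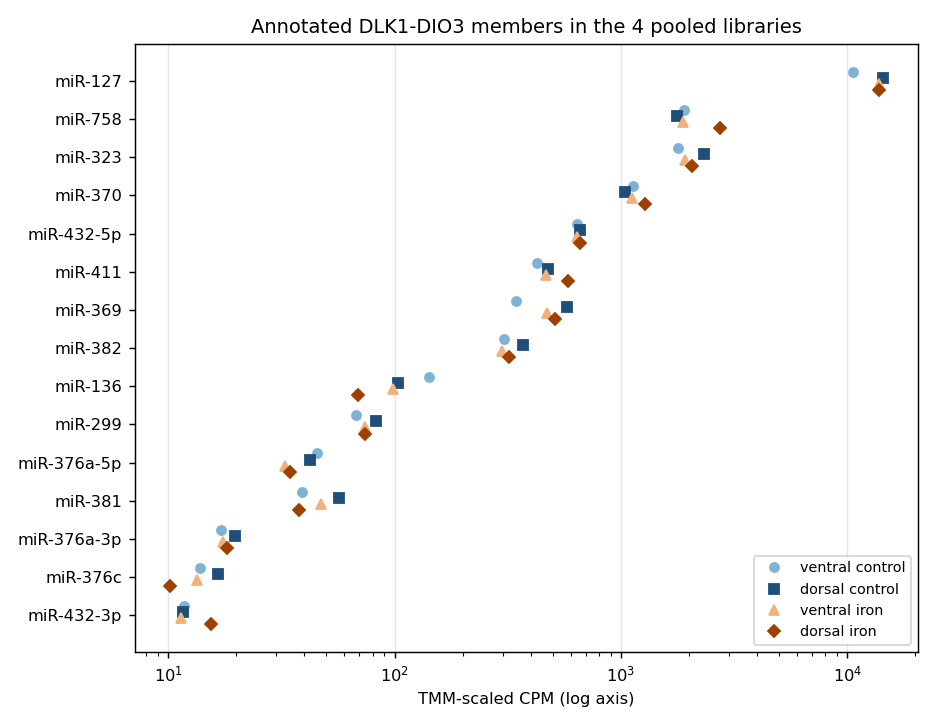
TMM-scaled CPM (log axis) of the 15 measured annotated members, 1 point per pooled library. MiR-127 lies above all others at 10653.5 to 14363.5 CPM, and miR-136 runs from 141.5 CPM in ventral control down to 68.7 in dorsal iron.

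In ventral hippocampus, the iron library had more miR-369 and miR-127 than the control library and less miR-136 and miR-376a-5p. MiR-369 was 1.37-fold higher (1.32 to 1.42) and miR-127 1.30-fold higher (1.29 to 1.31). MiR-136 was 1.43-fold lower (1.33 to 1.54) and miR-376a-5p 1.39-fold lower (1.22 to 1.57). These were the 4 members at least 1.25-fold apart with an interval excluding 1, and no member was 2-fold apart. In the conserved table miR-376a-5p was 1.24-fold lower in ventral hippocampus (1.03 to 1.49), short of 1.25-fold. Its iron to control ratio there in dorsal hippocampus was 0.843, with an interval that included 1 (0.696 to 1.02). Here and below a miRNA counts as apart by a given fold only if its interval also excludes a ratio of 1. Of all 251 measured miRNAs, 1.99% were 2-fold apart, 10.4% were at least 1.25-fold higher and 13.1% at least 1.25-fold lower, so the members' 2 and 2 of 15 stand beside a background of that order. With total count scaling the split was 1 higher and 2 lower. The members' median log2 ratio was 0.00, as was that of all measured miRNAs, and 8 members lay above 1 and 7 below. The 1.25-fold threshold, here and below, was chosen after the data had been seen.

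In dorsal hippocampus, the iron library had more miR-758 and miR-432-3p than the control library and less miR-376c, miR-136 and miR-381. MiR-758 was 1.55-fold higher (1.52 to 1.58) and miR-432-3p 1.33-fold higher (1.06 to 1.67). In the conserved table miR-432-3p stayed below 10 CPM, and its ratio of 1.29 had an interval that included 1 (0.935 to 1.79). MiR-376c was 1.61-fold lower (1.27 to 2.06), and miR-136 (1.37 to 1.65) and miR-381 (1.32 to 1.69) were each 1.50-fold lower. The annotated miR-381 is the 5p arm, and in the conserved table its 3p arm went the other way, 1.24-fold higher with iron in dorsal hippocampus (1.09 to 1.40). No member was 2-fold apart (background 0.797%). The 2 higher and 3 lower members at 1.25-fold stand beside 17.9% of all measured miRNAs higher and 19.9% lower. With total count scaling the split was 1 higher and 5 lower, and with the authors' RPM 1 and 4. The members' median log2 ratio was -0.17 against -0.02 over all measured miRNAs, and 10 of 15 lay below 1. Total count scaling moved both medians, to -0.30 for the members and -0.15 for all.

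Between regions of control piglets, dorsal hippocampus had more miR-369, miR-381, miR-127 and miR-323 than ventral hippocampus and less miR-136. MiR-369 was 1.68-fold higher (1.62 to 1.75), miR-381 1.46-fold (1.30 to 1.63), miR-127 1.35-fold (1.34 to 1.36) and miR-323 1.31-fold (1.29 to 1.33). MiR-136 was 1.37-fold lower (1.28 to 1.47), and the second lowest ratio was that of miR-370, 1.08-fold lower (1.06 to 1.11). No member was 2-fold apart, as against 1.99% of all measured miRNAs. At 1.25-fold 4 members were higher and 1 lower, beside 12.4% and 14.3% of all. The members' median log2 ratio was 0.21 and that of all measured miRNAs -0.0036. In the distal block 8 of 10 members lay above 1, with a median of 0.27, and in the proximal block 2 of 5, with a median of -0.01.

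Between regions of iron piglets, dorsal hippocampus had more miR-758 and miR-432-3p and less miR-136 and miR-376c. MiR-758 was 1.46-fold higher (1.43 to 1.48), miR-432-3p 1.36-fold higher (1.08 to 1.71), miR-136 1.44-fold lower (1.31 to 1.58) and miR-376c 1.31-fold lower (1.02 to 1.68). These were the members past 1.25-fold, 2 in each direction, beside 11.6% of all measured miRNAs higher and 16.3% lower, and none was 2-fold apart (background 0.797%). In the conserved table the ratio of miR-432-3p was 1.24, with an interval that included 1 (0.897 to 1.70). The members' median log2 ratio was 0.07 and that of all measured miRNAs 0.01; with total count scaling the members' median was on the other side of 0, at -0.03, and with the authors' RPM at -0.01. The median of all measured miRNAs moved along with it, to -0.09 and -0.06, and stayed below that of the members. The excess of dorsal control over ventral control in miR-127 was not seen here: its log2 ratio between dorsal iron and ventral iron was -0.0041, with an interval of the ratio from 0.990 to 1.004.

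**Figure D2:**
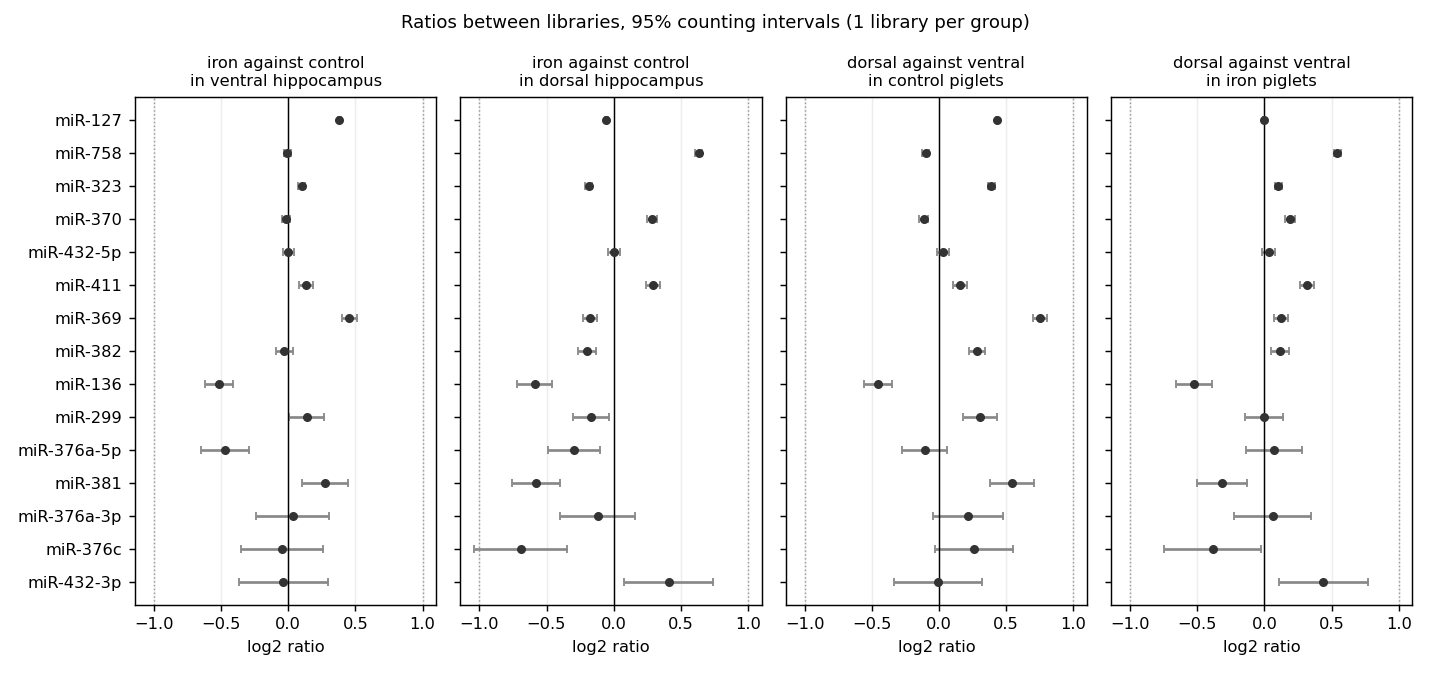
Log2 ratios between libraries for the 15 measured annotated members in the 4 pairwise comparisons, with 95% counting intervals; the solid line marks equal levels and the dotted lines 2-fold. No point lies past 2-fold, and miR-136 lies left of the solid line in all 4 panels.

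Over both regions at once, an additive edgeR quasi-likelihood fit with 1 residual degree of freedom called none of the 15 members for iron, at an adjusted p threshold of 0.05, and none of the 251 measured miRNAs (background 0%); 11 of the 251 had an unadjusted p under 0.05. MiR-136 was the only member among these 11, with a log2 difference of -0.55 (unadjusted p = 0.0471, adjusted p = 0.929). For region, the same fit called 0 of 15 members and 0 of 251 miRNAs, with 8 at an unadjusted p under 0.05 and no member among them. The largest region differences among members were -0.49 for miR-136 (adjusted p = 0.996) and 0.44 for miR-369 (adjusted p = 0.996). DESeq2's Wald test and limma-trend called 0 members for either term; over all 251 miRNAs DESeq2 called 1 for iron and 0 for region, and limma-trend 0 for both. These p-values describe the spread between libraries and not between piglets.

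The iron difference had opposite signs in the 2 regions for 5 members whose intervals excluded 1 in both: miR-127, miR-323, miR-369, miR-299 and miR-381 were higher with iron in ventral and lower in dorsal hippocampus. Of all measured miRNAs 17.9% met the same criterion, and 12.7% the opposite one, lower in ventral and higher in dorsal hippocampus, which no member met. Taking the dorsal minus the ventral log2 ratio, miR-381 stood lowest at -0.85 and miR-758 highest at 0.64. The median over the members was -0.15 and over all measured miRNAs -0.02, with 6 of 15 members above 0 and 49.0% of all miRNAs. The 4 libraries leave no degree of freedom to test this difference. By library, 8 of the 15 members had their highest CPM in dorsal control, 5 in dorsal iron, 2 in ventral control and 0 in ventral iron, while over all measured miRNAs these shares were 23.9%, 32.7%, 25.5% and 17.9%.

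Lists of cell type markers shifted between the same libraries. The summed CPM of the vascular list (6 of 6 measured, among them miR-126 and miR-143) was 16024 in ventral control, 21937 in dorsal control, 17044 in ventral iron and 18871 in dorsal iron, and that of the microglia and immune list (6 of 7 measured) was 1489, 1947, 1826 and 1908 CPM. The lowest and highest libraries of both were those of miR-127. The oligodendrocyte list (2 of 3 measured) was at 10264, 11503, 13906 and 8812 CPM, and the epithelial list (3 of 4 measured) at 457, 153.4, 127.4 and 138.2 CPM. The neuron list (10 of 11 measured, with miR-9 and miR-124 among them) was at 269211, 249501, 254450 and 239549 CPM. The neuron list's median log2 ratio was 0.05 from ventral to dorsal control, where its sum was lower, and -0.22 from dorsal control to dorsal iron. The microglia and immune list's median was -0.13 from ventral to dorsal control and -0.27 from ventral control to ventral iron, where its sums were higher. The astrocyte list lay between 32799 and 38561 CPM, the erythroid list between 837 and 1075, the choroid plexus list between 164 and 253, the muscle list between 916 and 1195 and the liver list between 99.5 and 178. No marker of these lists was at 0 in any library. Whether these lists play a part in the members' differences was not tested, and in pooled tissue fewer cells of a type and less RNA per cell cannot be told apart.

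The pig annotation holds few of the locus's arms. The conserved table lists mature sequences known in other species, and grouping its member rows by shared sequence gave 89 arms, of which 54 were measured. No pig sequence was among the rows of 41 of these 54, and arms without one held 55.7% of the members' reads in ventral control (55.6 to 55.9%), 51.1% in dorsal control, 51.3% in ventral iron and 53.9% in dorsal iron. In this table the locus held 3.85%, 4.34%, 4.06% and 4.23% of conserved reads in the same order, with ventral control again lowest and dorsal control highest. Both tables were made from the same libraries, so the conserved table does not repeat the measurement.

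The most abundant arm without a pig sequence was miR-409-5p, with 3145 CPM in ventral control, 3018 in dorsal control, 3408 in ventral iron and 4595 in dorsal iron, where it was 1.52-fold higher than in dorsal control (1.50 to 1.54). MiR-299a-3p followed the same order, at 1975, 1816, 2012 and 2485 CPM. MiR-136-3p had 2388, 2676, 2522 and 2593 CPM, far above the 5p arm that the pig annotation counts. MiR-411-5p had 1439, 2158, 1842 and 1986 CPM and was 1.50-fold higher in dorsal control than in ventral control (1.47 to 1.53). MiR-410-3p, at the far end of the distal cluster, lay between 1744 and 2057 CPM, miR-409-3p between 1692 and 1884 CPM, and miR-656-3p between 913 and 1262 CPM. MiR-323b lay between 983 and 1178 CPM and miR-127-5p between 712 and 962 CPM. MiR-495-3p had 636, 720.2, 508 and 506 CPM, lower in both iron libraries than in both controls. MiR-539-3p had 322, 508, 392 and 454 CPM, higher in both dorsal libraries. MiR-487b-3p lay between 492 and 550.5 CPM, miR-382-3p between 396 and 560 CPM with dorsal control the highest, and miR-494-3p between 392 and 518 CPM with dorsal iron the highest.
miR-409-5p: aGGUUACCcgagcaacuuugcauc
miR-411-5p: aUAGUAGAccguauagcguacg
miR-495-3p: aAACAAACauggugcacuucuuu
miR-539-3p: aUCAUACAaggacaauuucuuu

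Some locus miRNAs that are prominent in the brain of other mammals had few reads in the conserved table. The miR-134 row held 1 read in dorsal control and 0 in the other 3 libraries, and the miR-379-5p arm held 15, 11, 17 and 15 reads. The miR-379-3p arm held 297, 251, 267 and 285 reads. How reads were assigned to rows is not given, so these values do not show that a miRNA was absent. MiR-134, which limits dendritic spine growth, and miR-379, which gives the distal cluster its name, were singled out after their values had been seen.

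Across the 54 arms, no arm was 2-fold apart in any comparison. Under the name grouping, 75 member names were measured and none was 2-fold apart, against 1.93% of 727 names for iron in ventral hippocampus, 3.03% for iron in dorsal hippocampus, 2.34% for region in controls and 2.48% for region in iron piglets. Between regions of control piglets, 14 arms were at least 1.25-fold higher in dorsal and 2 lower, beside 13.5% and 15.8% of all 468 measured arms. The arms' median log2 ratio was 0.10 and that of all arms -0.02, with 35 of 54 above 1. The largest ratios were those of miR-369-3p (1.78-fold, 1.73 to 1.83), miR-539-3p (1.58-fold, 1.52 to 1.64) and miR-381-5p (1.52-fold, 1.35 to 1.71), and the 2 lower arms were miR-127-5p (1.35-fold lower, 1.32 to 1.39) and miR-136-5p (1.30-fold lower, 1.197 to 1.42).

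For iron in ventral hippocampus 5 arms were higher and 3 lower at 1.25-fold, beside 9.83% and 15.2% of all arms, and with total count scaling 4 and 5. For iron in dorsal hippocampus 10 arms were higher and 14 lower, beside 17.9% and 24.4% of all arms, and with total count scaling 6 and 18. The higher arms were led by miR-299b-3p (1.85-fold, 1.60 to 2.14), whose most abundant sequence is a shorter form of miR-299a-3p, and the lower ones by miR-376c-5p (1.92-fold lower, 1.45 to 2.57) and miR-136-5p (1.85-fold lower, 1.64 to 2.08). Also among the 10 higher arms were miR-299a-3p (1.37-fold), a further miR-299-3p sequence (1.75-fold) and miR-299b-5p (1.33-fold). The last contains the reverse complement of miR-299b-3p. These miR-299 arms share sequence or its reverse complement and may not be separate signals. Between regions of iron piglets 8 arms were higher in dorsal and 6 lower, beside 13.2% and 17.9% of all arms, and with total count scaling 4 and 9. The medians for these 3 comparisons were -0.01, -0.05 and 0.09 for the locus arms and -0.01, -0.05 and -0.01 for all arms. Of the 54 arms 24 had their highest CPM in dorsal control and 21 in dorsal iron, against 6 in ventral control and 3 in ventral iron; over all 468 arms dorsal control was highest for 25.9%, dorsal iron for 31.6%, ventral control for 26.7% and ventral iron for 15.8%. With total count scaling 24 and 15 arms were highest in dorsal control and dorsal iron.

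**Figure D3:**
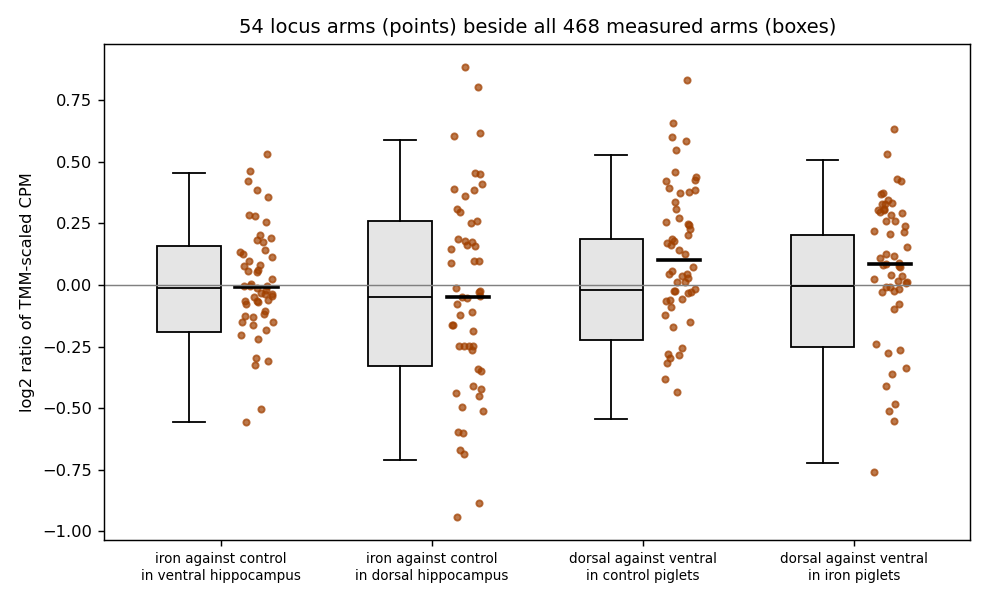
Log2 ratios of the 54 measured locus arms (points, with a bar at their median) beside all 468 measured arms of the conserved table (boxes from the lower to the upper quartile, whiskers from the 5th to the 95th percentile). The locus arms' median is 0.10 between regions of control piglets, where that of all arms is -0.02, and -0.05 for iron in dorsal hippocampus, as for all arms.

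Both arms were read for 27 locus hairpins, and the 3p arm held more reads in 20 of them. No such count is given for hairpins outside the locus. MiR-299a and miR-299b were counted as separate hairpins, with 5p shares of 2.81 to 4.24% and 84.3 to 88.2%. The most abundant miR-299b-3p sequence is a shorter form of miR-299a-3p, so these counts may hold 1 hairpin under both names. The most abundant miR-299b-5p sequence contains the reverse complement of that miR-299b-3p sequence. The 5p share of miR-299b may therefore compare opposite strands and not the arms of a hairpin. Among 11 hairpins with a pig sequence for 1 arm, that arm was the minor one in 7 (miR-136, miR-299a, miR-376c, miR-381, miR-382 and miR-487b with a 5p sequence, and miR-411 with a 3p sequence). The annotated values of these miRNAs therefore follow the arm with fewer reads, except that miR-381 is not settled. Its arms held 1947 and 1967 reads, and with the most abundant sequence of each arm alone its 5p arm was the larger in every library. Counted in that way, the pig sequence was of the minor arm in 6 of the 11, and the 3p arm was again the larger in 20 of the 27 hairpins.

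The arms of a hairpin come from 1 transcript, and in 15 of the 27 hairpins the share of the 5p arm differed between at least 1 pair of libraries with intervals that do not overlap. MiR-299a and miR-299b were both among these 15. No count over hairpins outside the locus stands beside it, so it does not show a trait of the locus. In the other 12 all intervals overlapped, as in miR-382, where the 5p share lay between 27.9% and 28.6%, and miR-487b, between 0.750% and 0.806%. In miR-136 the 5p arm held 3.89% of the hairpin's reads in ventral control (3.69 to 4.09%), 2.70% in dorsal control (2.53 to 2.88%), 2.63% in ventral iron (2.46 to 2.81%) and 1.53% in dorsal iron (1.39 to 1.68%). The 5p share was highest in ventral control and lowest in dorsal iron with intervals that do not overlap those of the other libraries, while the 3p arm, at 2388 to 2676 CPM, had its lowest level in ventral control, where the 5p arm had its highest. In miR-127 the 5p arm held 8.54% (8.40 to 8.68%), 4.85% (4.76 to 4.95%), 5.78% (5.67 to 5.89%) and 6.22% (6.09 to 6.34%) in the same order. With the most abundant sequence of each arm alone these shares were 18.1%, 10.8%, 12.7% and 13.4%, with the same libraries highest and lowest. In miR-381 it held 49.9%, 56.1%, 51.7% and 39.1%, highest in dorsal control (53.2 to 59.1%) and lowest in dorsal iron (35.9 to 42.5%). With the most abundant sequences alone it held 62.2%, 66.6%, 64.2% and 52.5%, in the same order of libraries but above 50% in dorsal iron too. In miR-377 the 5p share was 9.39%, 8.81%, 9.97% and 16.7%, with dorsal iron (14.7 to 18.9%) above the other 3. Here miR-377-3p stood at 98.2 CPM in dorsal iron against 137.2 to 149 CPM elsewhere, and miR-377-5p stood at 19.7 CPM against 14.4 to 15.2. The hairpins named here were singled out after the shares had been seen.
miR-381-5p: aGCGAGGUugcccuuuguauauu
miR-381-3p: aUAUACAAgggcaagcucucugu
miR-377-5p: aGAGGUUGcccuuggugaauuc
miR-377-3p: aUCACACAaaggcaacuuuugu

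**Figure D4:**
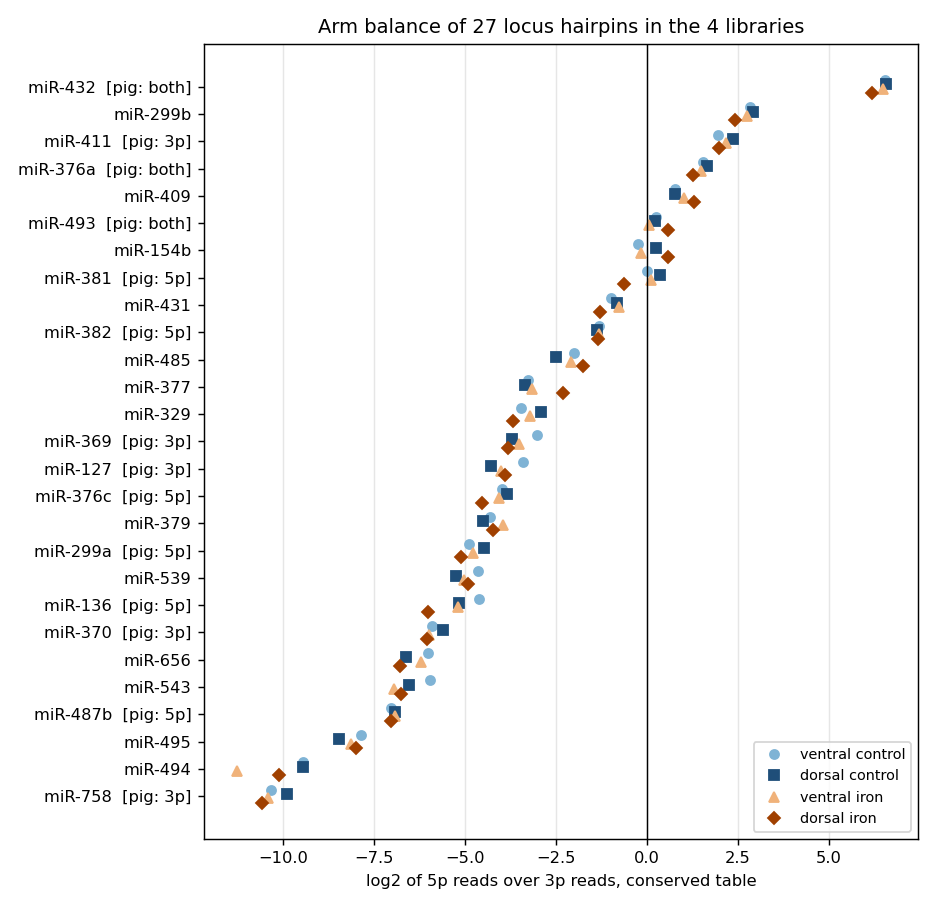
Log2 of 5p over 3p reads for the 27 locus hairpins with both arms in the conserved table, 1 point per library, with the arm that has a pig sequence in brackets. Points left of the line have more 3p reads, as in 20 hairpins, and miR-136 lies farthest left in dorsal iron.

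The conserved table also resolves the last base of many arms. In 37 pairs of member rows of the same arm, the shorter sequence lacked only the last base of the longer one, a U in 23 pairs, and both had at least 100 reads in every library. The ratio of short to long reads was lowest in dorsal control in 26 pairs and highest in dorsal iron in 28. For miR-127-3p with and without its last U it was 0.919 in ventral control, 0.735 in dorsal control, 0.872 in ventral iron and 0.970 in dorsal iron. The median ratio over the 37 pairs was 0.738, 0.615, 0.721 and 0.753. In 362 pairs of other miRNAs dorsal control was lowest in 184 and dorsal iron highest in 195, with medians of 0.706, 0.656, 0.696 and 0.738, so the same libraries stood low and high outside the locus. From control to iron in dorsal hippocampus the log2 ratio moved by a median of 0.30 over the member pairs, up in 31 of 37, and by 0.08 over the other pairs, up in 245 of 362. Reads that fit both rows were divided between them in the deposited table, so the ratio is one of deposited reads and not of separate molecules, and pairs of one arm share reads.

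**Figure D5:**
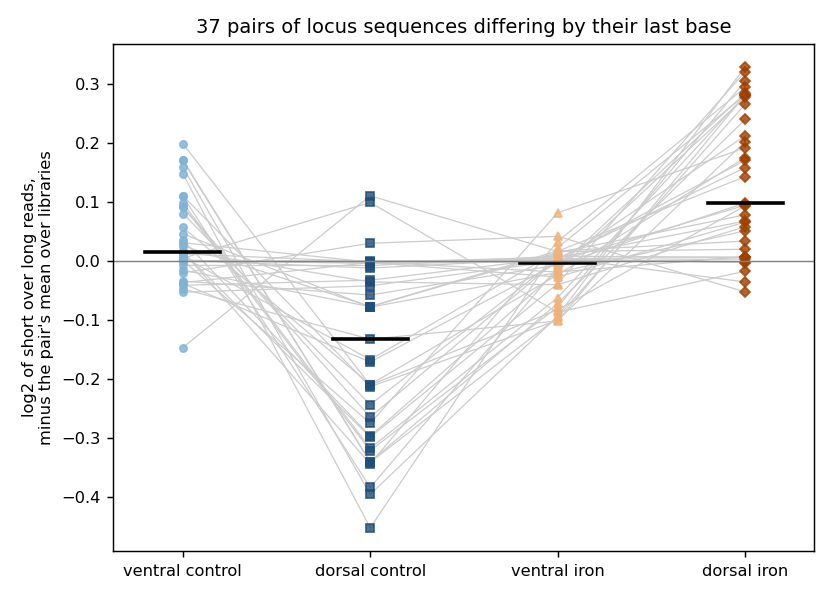
Log2 ratio of short to long reads in 37 pairs of member sequences that differ by the last base, centred on each pair's mean over the 4 libraries; lines join a pair and bars are medians. The medians are -0.13 in dorsal control and 0.10 in dorsal iron.

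Counts of miR-409 were not separated by strand in the conserved table. A row named miR-409b is the exact reverse complement of a row named miR-409-3p, and both held 4604 reads in ventral control, 2913 in dorsal control, 3196 in ventral iron and 3641 or 3642 in dorsal iron, a difference of at most 0.00549%.
miR-409-3p: gAAUGUUGcucggugaacccc
miR-409b: gGGGUUCAccgagcaacauuc
The value listed for miR-409b therefore cannot be told apart from reads of miR-409-3p, and miR-409-3p shares its reads with it.

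Further miRNAs of the locus outside the 34 numbers (from miR-300, miR-380, miR-496, miR-541, miR-544, miR-655, miR-665, miR-668, miR-1193 and miR-1197) had no row in the annotated table, and 7 of their arms were measured in the conserved table. None was at least 1.25-fold apart for iron in either region; dorsal was higher by that much for 1 of 7 arms in controls and 2 of 7 in iron piglets. In RefSeq's pig assembly Sscrofa11.1, 7 of the 16 member precursors have a gene entry. MIR493, MIR127, MIR432 and MIR136 are placed in this order, the last 3 inside the span of RTL1, and MIR376C, MIR376A and MIR381 are not placed on a chromosome.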

How the data were processed

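Per the file headers, the authors deposited estimated counts, that is reads per miRNA divided in part into fractions, for each of the 4 pooled libraries. They were rounded for intervals and tests. The authors also deposited RPM values, per the file headers, used only as an alternative scaling. The submitters' processing notes name cutadapt 1.2.2 and the builds Sscrofa 10.2 and susScr 3; neither the aligner nor the way reads were divided is given in the sources used here. In the tables, 8 further per-sample columns were not used.

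Annotated rows that share their precursors, and whose reads differ by at most 0.1%, were merged (326 to 321). Ratios are of TMM-scaled CPM (edgeR 4.0.16, R 4.3.3) with exact conditional binomial 95% intervals (SciPy 1.17.1). The additive edgeR fit was tested on simulated data in which 60 of 251 miRNAs were changed, some 2-fold and some 4-fold. It recovered 100% of those changed 4-fold, with 1.5 false calls a run. The simulated spread was set in advance and not estimated from these libraries, and no difference between regions was simulated. No measured annotated member differed 4-fold, so this recovery does not speak to differences of the members' size. Recovery of the 2-fold changes was not recorded. Rows of the conserved table with the same number were joined where one sequence contained the other. They were also joined where both shared a run of at least 19 bases and their names carried the same letter or 1 carried none. Rows named miR-299b and miR-409b were kept apart from the other rows of their numbers. This grouping was chosen after the data had been seen. Every measured annotated member is named, and from the conserved table the 15 most abundant arms without a pig sequence (miR-409b among them); others named were singled out. Members and lists were chosen with earlier results of these data known. DESeq2 1.42.0, limma 3.58.1 and other filters and scalings were alternatives.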

Additional observations from a re-analysis of the deposited data

Results flagged for a closer look

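In 5 annotated members the iron library was above the control library in ventral hippocampus and below it in dorsal hippocampus, with counting intervals that excluded equal levels in both regions. Of all 251 measured miRNAs 17.9% showed the same pattern. The dorsal minus the ventral log2 ratio was -0.44 for miR-127, -0.29 for miR-323, -0.63 for miR-369, -0.31 for miR-299 and -0.85 for miR-381. Other arms of these hairpins in the conserved table had 0.52 (miR-127-5p), 0.43 (miR-299a-3p), 0.13 (miR-381-3p) and -0.42 (miR-369-5p). MiR-323-5p stayed below 10 CPM there. With 1 library per group the difference between regions was not tested. In each of these 5, ventral control lay below dorsal control. For every miRNA, and not only for these 5, this value uses the same pair of control libraries.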

How the results depend on the processing

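No paired analysis was possible because each group is 1 pooled library and the labels number no replicates; the region term of the additive fit compares regions within each treatment. No annotated member was 2-fold apart with an interval excluding 1, and none was called by the additive fit, under any alternative run. Without a filter on low values the iron to control ratio of miR-376b, with 1 to 5 reads a library, was 0.294 in ventral and 0.232 in dorsal hippocampus, with intervals that included 1, and 1 member name of the conserved table passed 2-fold with an interval excluding 1 (miR-543-5p, 43 and 18 reads in ventral control and ventral iron). Total count scaling moved the members' median log2 ratio to -0.062 for iron in ventral and -0.30 in dorsal hippocampus and to -0.032 between regions of iron piglets; the authors' RPM gave -0.28 for iron in dorsal hippocampus. The median of all measured miRNAs moved alike, to -0.06, -0.15 and -0.09 with total counts and -0.13 with RPM. At 1.25-fold, total count scaling left 1 member higher with iron in ventral and 1 in dorsal hippocampus (1 also with RPM) and gave 5 lower in dorsal hippocampus; among conserved arms it gave 5 lower for iron in ventral hippocampus, 6 higher for iron in dorsal hippocampus and 4 higher between regions of iron piglets. With rows not merged the locus held 1.28% of annotated reads in ventral control, 1.63% in dorsal control, 1.53% in ventral iron and 1.55% in dorsal iron, and 1.77%, 2.17%, 2.04% and 2.01% of annotated and predicted reads together. With the most abundant sequence of each arm alone, the 5p share was 18.1%, 10.8%, 12.7% and 13.4% in miR-127, 7.68%, 7.08%, 8.33% and 14.3% in miR-377, and 62.2%, 66.6%, 64.2% and 52.5% in miR-381, in the order ventral control, dorsal control, ventral iron and dorsal iron; for these shares the most abundant sequence holds fewer of an arm's reads by construction. The cause of the other shifts was not tested. No alternative scaling turned the direction of a member past 1.25-fold. Over all measured miRNAs the additive fit called 0 for each term, and its alternatives 0 to 3 for iron and 0 to 4 for region. Depth limits the members under 20 CPM: the ventral iron to control ratio of miR-376a-3p had an interval from 0.848 to 1.23.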
